A study of Gossypium hirsutum with 17 samples.

Results

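The transcripts described here are those of thiamine (vitamin B1) synthesis in upland cotton seedlings, measured by 4 probe sets out of the 24029 cotton probe sets of the array. They are Gra.70.1.S1_s_at, Ghi.10424.1.S1_s_at, Gra.2938.2.A1_at and Gra.1108.2.S1_s_at, and they were picked by identifier because the study's tables of stress-changed transcripts describe them as thiamine synthesis genes. All 4 had been listed there as higher under stress than in control, so their differences from control are given as a description, without a test. All seedlings were Gossypium hirsutum, line C312, and were harvested 14 days after germination. The 5 stresses were 1 μM ABA, cold at 4 °C, 200 mM mannitol as a drought treatment, 200 mM NaCl as a salinity treatment, and medium of pH 11 as an alkalinity treatment (called pH here), and each was set against unstressed control seedlings. Seedlings stayed 10 days on ABA, mannitol, NaCl or pH 11 medium, whereas the cold seedlings had 8 days on plain medium and then 2 days of cold. The medium of the ABA, cold, mannitol and NaCl seedlings was at pH 5.8, and for control the labels say only that growth was normal. There were 3 arrays each for ABA, cold, mannitol, NaCl and control and 2 for pH, 17 in all. The labels call the arrays of a condition biological replicates and the methods say that the RNA of 3 biological replicates was pooled, so the spread between arrays may be technical, and every p-value below measures only that spread.

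Thiamine is the vitamin whose diphosphate form serves as cofactor of enzymes of central carbon metabolism, among them transketolase, pyruvate dehydrogenase and 2-oxoglutarate dehydrogenase. Plants make it in the plastid from a thiazole part and a pyrimidine part, which are synthesised separately and then joined. The thiazole part is the product of THI1, also called THI4, a plastid enzyme of Arabidopsis. Its yeast counterpart gives up a sulfur atom of its own cysteine in the reaction and so works only once. The thiamine pathway is known in plants for responding to light and to abiotic stress.

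Gra.70.1.S1_s_at was described as strongly similar to the Arabidopsis thiazole biosynthetic enzyme (THI1, THI4). The other 3 were each described as moderately similar to one rice protein, a putative thiamine biosynthesis protein, with no step of the pathway given. The same tables place Gra.70.1.S1_s_at, Gra.2938.2.A1_at and Gra.1108.2.S1_s_at in 1 UniGene cluster, the one that Gra.1108.2.S1_s_at is numbered after, and Ghi.10424.1.S1_s_at in a cluster of its own. The descriptions in those tables differ and give each of the 4 the cluster of its own identifier. The suffix _s_at, which marks probes that match more than 1 transcript, is carried by 3 of the 4. The 4 probe sets may therefore stand for fewer than 4 genes, and they are not independent measurements. Chromosome positions of the 4 are not given in the sources used here.

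Ghi.10424.1.S1_s_at is the only one of the 4 for which the study designed a PCR primer pair, shown here because it is the only designed sequence that identifies one of these transcripts. Both are written in the 5′ to 3′ direction, in lower case throughout since no base is singled out, and are 18 and 20 bases long.
forward primer: cagcctgagtttgttcta
reverse primer: gttcacattcaatccatcaa

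The values are MAS5 signals (Affymetrix's summary of the probes of a probe set) on the log2 scale after quantile normalization, so a difference of 1 is a fold of 2. After normalization every array had a median of 6.04, a 25th percentile of 4.07 and a 75th percentile of 7.90. The deposited signals were not on 1 scale. The 8 arrays of ABA, mannitol and pH shared a scale, with trimmed means between 496.7 and 498.1. The 9 arrays of control, cold and NaCl had lower trimmed means that differed among themselves, between 18.1 (NaCl replicate 1) and 137.9. NaCl replicate 1 correlated at most 0.86 with any other array, and NaCl replicate 2 was closer to cold replicate 2 (r = 0.94) than to the other NaCl arrays. NaCl replicate 3 was closest to control replicate 3 (r = 0.92), so that 2 of the 3 NaCl arrays were nearest to an array of another condition. Markers of leaf tissue in the named probe sets came down to 1, the photosystem II 44 kDa protein. The pattern for root genes matched only a nitrate transporter likened to Arabidopsis NTP2, which is not known here to mark root, so the makeup of the seedlings could not be checked in depth.

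The thiazole biosynthetic enzyme transcript (Gra.70.1.S1_s_at) was low in every control seedling array and high in every stress array. Its log2 signal was 9.55, 10.46 and 9.41 in ABA, 9.003, 8.89 and 8.79 in cold, and 9.53, 8.84 and 9.31 in mannitol. It was 10.53, 8.65 and 9.13 in NaCl and 10.33 and 10.91 in pH, against 5.41, 3.42 and 5.93 in control. The lowest stress array, NaCl replicate 2, lay 2.72 above the highest control array. Across the 3 control arrays the signal spread over more than the 5 stress means did, since control replicate 2 was the lowest of the 17 arrays. Ordered by mean, the conditions ran pH, ABA, NaCl, mannitol, cold, control, and each stress overlapped with its neighbour in that order. In its arrays this probe set ranked between the 83.3 and 97.4 percentile of all signals in the stress arrays and between the 18.0 and 48.6 percentile in the control arrays. The deposited table has no detection calls, so whether the control signals were above background is not known here. RNA came from seedlings as a whole, so fewer cells of a type that makes the transcript and less of it per cell cannot be told apart.

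Ghi.10424.1.S1_s_at, a putative thiamine biosynthesis protein, gave nearly the same picture. Its log2 signal was 9.51, 10.37 and 9.60 in ABA, 9.10, 8.92 and 8.87 in cold, and 9.50, 8.93 and 9.38 in mannitol. It was 10.75, 8.77 and 9.16 in NaCl and 10.51 and 10.93 in pH, against 5.48, 3.79 and 5.81 in control. The order of the conditions was the same as for the thiazole enzyme, and here both pH arrays were above all 3 ABA arrays. The gap between the lowest stress array, again NaCl replicate 2, and the highest control array was 2.96.

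Gra.2938.2.A1_at, described as similar to the same rice protein, differed in its order of stresses. Its log2 signal was 6.59, 7.92 and 7.48 in ABA, 7.93, 7.72 and 7.73 in cold, and 8.64, 8.04 and 8.84 in mannitol. It was 9.64, 7.19 and 8.73 in NaCl and 8.14 and 9.10 in pH, against 4.61, 4.36 and 5.77 in control. ABA, the second highest condition for the first pair of probe sets, had the lowest stress mean here, and ABA replicate 1 lay only 0.81 above the highest control array. The means of pH, NaCl and mannitol (8.62, 8.52 and 8.50) were closer to each other than the arrays of any of the 3 were, and the mannitol arrays lay just above the cold arrays (limma adjusted p = 0.40).

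Gra.1108.2.S1_s_at, the third probe set likened to the rice protein, spread most within a condition. Its log2 signal was 6.29, 7.50 and 6.52 in ABA, 7.91, 6.70 and 7.17 in cold, and 7.25, 5.87 and 7.18 in mannitol. It was 9.84, 6.19 and 7.47 in NaCl and 7.58 and 7.68 in pH, against 4.48, 4.13 and 4.73 in control. Its NaCl arrays had an SD of 1.85 (n = 3), the largest SD of any condition among the 4 probe sets. Every stress overlapped with its neighbour in the order NaCl, pH, cold, ABA, mannitol, and the lowest stress array, mannitol replicate 2, lay 1.13 above the highest control array.

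**Figure D1:**
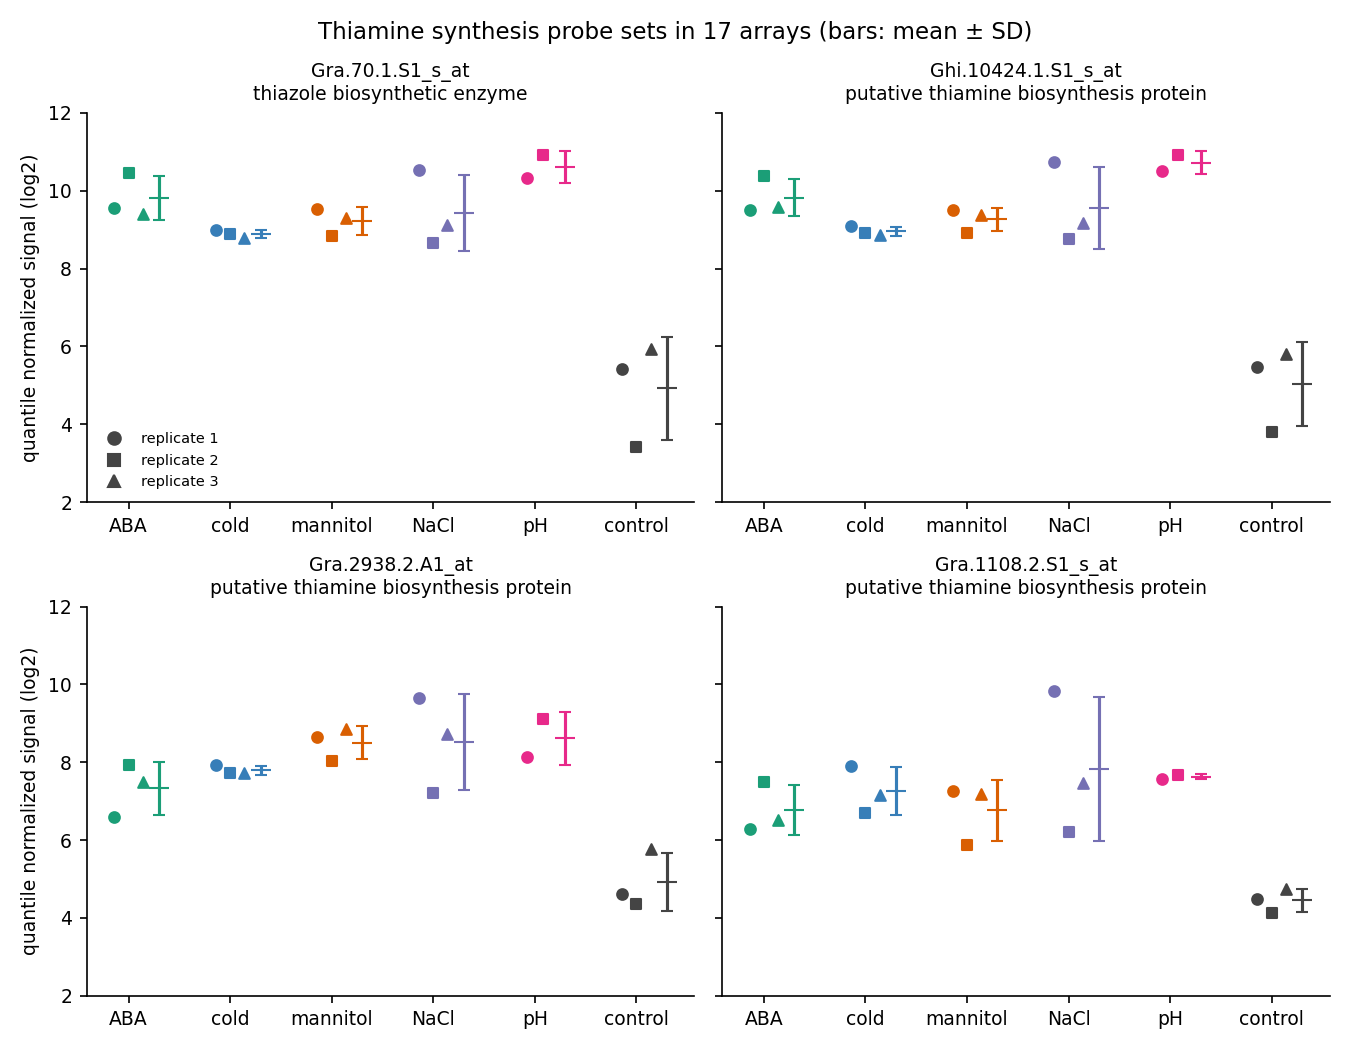
Quantile normalized log2 signal (vertical axis) of the 4 thiamine synthesis probe sets in each of the 17 arrays, by condition (horizontal axis), with the mean and SD of each condition beside the points; marker shapes give the replicate number. In all 4 panels the 14 stress arrays lie above the 3 control arrays, and NaCl replicate 1 is the highest NaCl array.

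All 14 stress arrays were thus above all 3 control arrays for each of the 4 probe sets, a separation in this direction that 1.95% of all probe sets showed, and nothing is read from it since the 4 were chosen on it. On the log2 scale the thiazole enzyme probe set was higher than control by 4.89 on ABA, 3.97 in cold, 4.30 on mannitol and 4.51 on NaCl (standard error 0.59 each) and by 5.70 at pH 11 (standard error 0.66). For Ghi.10424.1.S1_s_at the differences were 4.80, 3.94, 4.24 and 4.53 (standard error 0.54 each) and 5.70 (standard error 0.60) in the same order. Both were therefore between 15.3-fold and 51.9-fold above control.

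Gra.2938.2.A1_at was above control by 2.41 on ABA, 2.88 in cold, 3.59 on mannitol and 3.61 on NaCl (standard error 0.57 each) and by 3.70 at pH 11 (standard error 0.63), or 5.32-fold to 13.0-fold. Gra.1108.2.S1_s_at was above control by 2.32, 2.81, 2.31 and 3.38 (standard error 0.72 each) and by 3.18 (standard error 0.80) in that order, or 4.97-fold to 10.4-fold. The median difference of the 4 probe sets was 3.61 on ABA, 3.41 in cold, 3.92 on mannitol, 4.06 on NaCl and 4.70 at pH 11, while the median over all probe sets was farthest from 0 on mannitol, at -0.05. Control replicate 2 enlarged the differences of the first pair: without it the thiazole enzyme probe set was above control by 4.13 on ABA, 3.22 in cold, 3.55 on mannitol, 3.76 on NaCl and 4.94 at pH 11. The same held for Ghi.10424.1.S1_s_at, at 4.18, 3.32, 3.63, 3.92 and 5.07. For Gra.1108.2.S1_s_at the NaCl difference was 2.42 without NaCl replicate 1 and 4.22 without NaCl replicate 2, and for Gra.2938.2.A1_at it was 3.08 and 4.28. With only NaCl replicate 3 left it was 4.25 for the thiazole enzyme probe set.

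**Figure D2:**
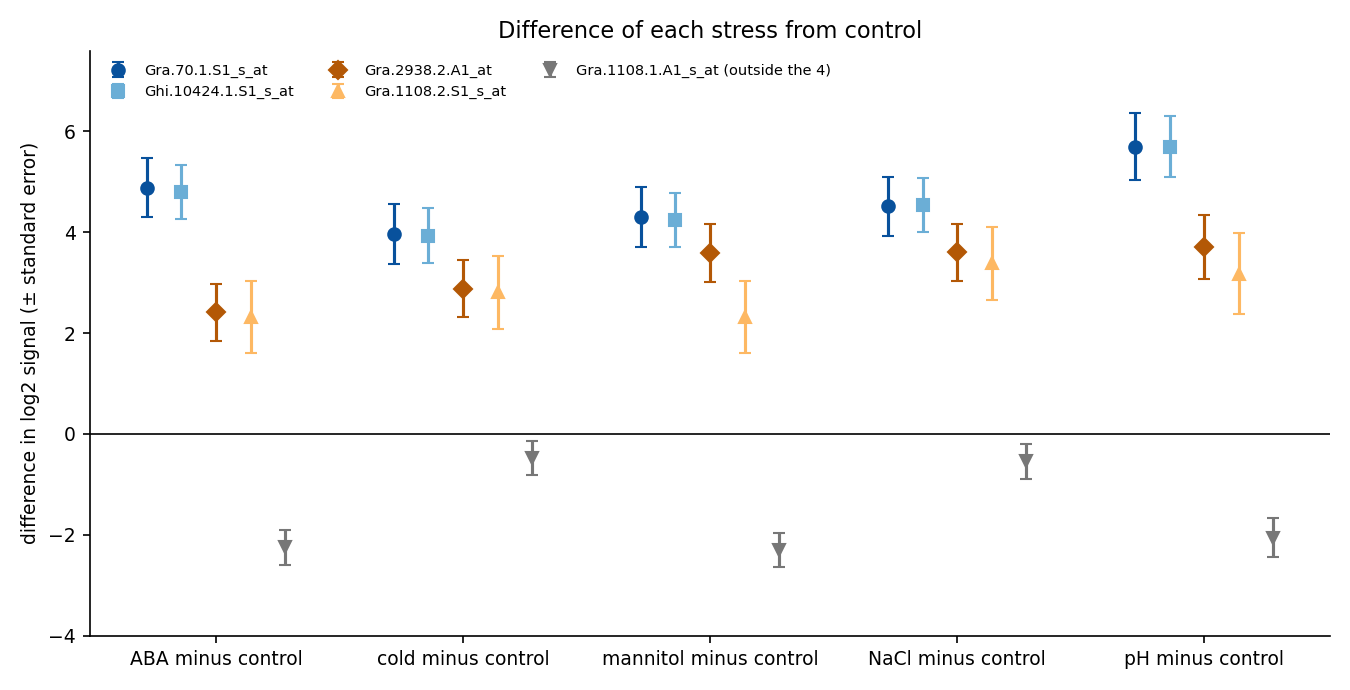
Difference of each stress from control in log2 signal (vertical axis, bars are the standard error of the fit) for the 4 thiamine synthesis probe sets and for Gra.1108.1.A1_s_at, a further probe set of the same number. The 4 lie between 2.31 and 5.70 in all 5 stresses, while Gra.1108.1.A1_s_at lies below 0, at -2.25 on ABA, -0.48 in cold, -2.30 on mannitol, -0.54 on NaCl and -2.05 at pH 11.

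Part of these differences could be set against measures of array scale and RNA quality. Cold, NaCl and control were outside the scale shared by ABA, mannitol and pH. When their arrays were normalized and fitted by themselves, the thiazole enzyme probe set was above control by 4.04 in cold and 4.63 in NaCl. These arrays were not on 1 scale either, since NaCl replicate 1 had a trimmed mean of 18.1, so the NaCl value is not free of scale. The deposited scale differs between control and each of ABA, mannitol and pH, so in those 3 comparisons scale and condition cannot be told apart. The log2 ratio of the 3′ to the 5′ actin control probe set, a sign of RNA integrity, was 4.46 to 5.31 on ABA, 2.69 to 7.22 in cold, 2.85 to 3.97 on mannitol, 2.70 to 4.79 on NaCl and 4.45 to 4.46 at pH 11, against 2.78 to 3.05 in control. The ratio was above all control arrays in ABA and pH. Only 3 of the 14 stress arrays were at or below the highest control array, namely replicate 2 of cold, mannitol and NaCl. In NaCl the 4 probe sets were highest in replicate 1 (ratio 4.79) and lowest in replicate 2 (2.70). In control and mannitol they were lowest where the ratio was lowest, and on ABA highest where it was highest. In cold the ratio peaked in replicate 3 (7.22), where the thiazole enzyme and Ghi.10424.1.S1_s_at were lowest. The other 2 probe sets were lowest in cold replicate 2, where the ratio was lowest (2.69). There Gra.1108.2.S1_s_at had 6.70, and Gra.2938.2.A1_at had 7.722 against 7.726 in replicate 3. The part of RNA integrity in the differences was not tested.

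A nitrate transporter moved the other way in the same arrays. Its 2 probe sets, Gra.2247.1.S1_at and Gra.2247.2.A1_at, which the study's tables list among the transcripts repressed in all stresses, were below all control arrays in all 14 stress arrays, as 2.46% of all probe sets were. Gra.2247.1.S1_at had 5.03 to 8.74 in the stress arrays and 9.14 to 9.53 in the control arrays, and Gra.2247.2.A1_at had 1.65 to 5.70 in the stress arrays and 6.03 to 7.28 in the control arrays. The photosystem II probe set (Gra.1806.1.S1_at) had 5.41 to 8.65 in the stress arrays and 5.80 to 6.57 in the control arrays, so that it overlapped. Where in the cotton seedling the nitrate transporter is made is not given, and the part of tissue makeup in the thiamine result was not tested.

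The comparisons that did not enter the choice of the 4 probe sets are those between stresses, which ask whether one stress carried more of these transcripts than another. Between the 5 stresses there are 10 pairs, giving 40 tests. By limma, 0 of the 40 passed, where passing takes a fold of at least 2 and an adjusted p (Benjamini-Hochberg, over all probe sets) not above 0.05, and 13% of all tests of these 10 pairs passed. A fold of at least 2 was measured in 11 of the 40, for which no share of all tests is given. By limma, 3 of the 40 had an unadjusted p under 0.05, all 3 of them with a fold of at least 2, against 20.2% of all tests. SAM, the permutation test of the study's methods, called 3 of the 40 and 14% of all tests. The share of calls among these probe sets was not above the background pooled over the 10 pairs by either tool. The pooled shares mix unlike pairs. Where the deposited scale differed, limma called 4439 to 5184 of the 24029 probe sets in a pair. Between ABA, mannitol and pH it called 135 to 966, and in cold minus NaCl 74.

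For the thiazole enzyme probe set all 3 differences with a fold of at least 2 involved pH, which was the higher in each. The largest was cold minus pH at -1.73 (95% confidence interval -3.15 to -0.30, limma adjusted p = 0.081). For Ghi.10424.1.S1_s_at cold minus pH was -1.76 (95% confidence interval -3.05 to -0.47, limma adjusted p = 0.053), at the edge of the threshold, and pH minus mannitol was 1.45 (95% confidence interval 0.16 to 2.75, limma adjusted p = 0.43). Both cold minus pH differences were also called by SAM. By limma, Ghi.10424.1.S1_s_at passed when some single arrays outside cold and pH were left out. Its limma adjusted p was 0.024 without control replicate 2, 0.049 without control replicate 3, 0.023 without NaCl replicate 1 and 0.038 without NaCl replicate 2. For the thiazole enzyme it was 0.028 without control replicate 2. Neither probe set passed in any other fit without a single array, including each that left out a cold or pH array. With median centring, which moved the median of all probe sets by 0.23, cold minus pH was -1.15 for Ghi.10424.1.S1_s_at and -1.13 for the thiazole enzyme and did not pass, and without rescaling, which moved that median by -2.42, it was -3.80 and -3.78 and passed. Cold and pH lie on different deposited scales, so for these differences scale and condition cannot be told apart. Mannitol and pH share a scale, and in a fit of the ABA, mannitol and pH arrays alone, pH minus mannitol of Ghi.10424.1.S1_s_at was 1.32 (limma adjusted p = 0.071).

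For Gra.2938.2.A1_at all 3 differences with a fold of at least 2 involved ABA, which was the lower in each. They were ABA minus pH at -1.29 (95% confidence interval -2.66 to 0.08, limma adjusted p = 0.31), ABA minus mannitol at -1.18 (95% confidence interval -2.40 to 0.05, limma adjusted p = 0.29) and NaCl minus ABA at 1.19 (95% confidence interval -0.03 to 2.42, limma adjusted p = 0.14). Of these, SAM called ABA minus mannitol, a pair that shares 1 deposited scale. Gra.1108.2.S1_s_at reached a fold of at least 2 for NaCl minus mannitol at 1.07 and for NaCl minus ABA at 1.06 (limma adjusted p = 0.30 for both). Its interval for NaCl minus mannitol ran between -0.48 and 2.62. Without NaCl replicate 2, NaCl minus ABA was 1.86 for Gra.2938.2.A1_at (limma adjusted p = 0.015) and 1.88 for Gra.1108.2.S1_s_at (adjusted p = 0.045), and NaCl minus mannitol was 1.89 for Gra.1108.2.S1_s_at (adjusted p = 0.043). Without NaCl replicate 1, NaCl minus ABA was 0.63 for Gra.2938.2.A1_at and 0.06 for Gra.1108.2.S1_s_at, NaCl minus mannitol of Gra.1108.2.S1_s_at was 0.07, and NaCl minus pH of Ghi.10424.1.S1_s_at was -1.74 (limma adjusted p = 0.041).

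The half-width of the 95% confidence interval of a pair was 1.16 to 1.55 on the log2 scale as a median for each probe set. Differences between stresses of up to 3.15 therefore stayed within an interval, and the missed thresholds do not show that the stresses had equal levels.

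**Figure D3:**
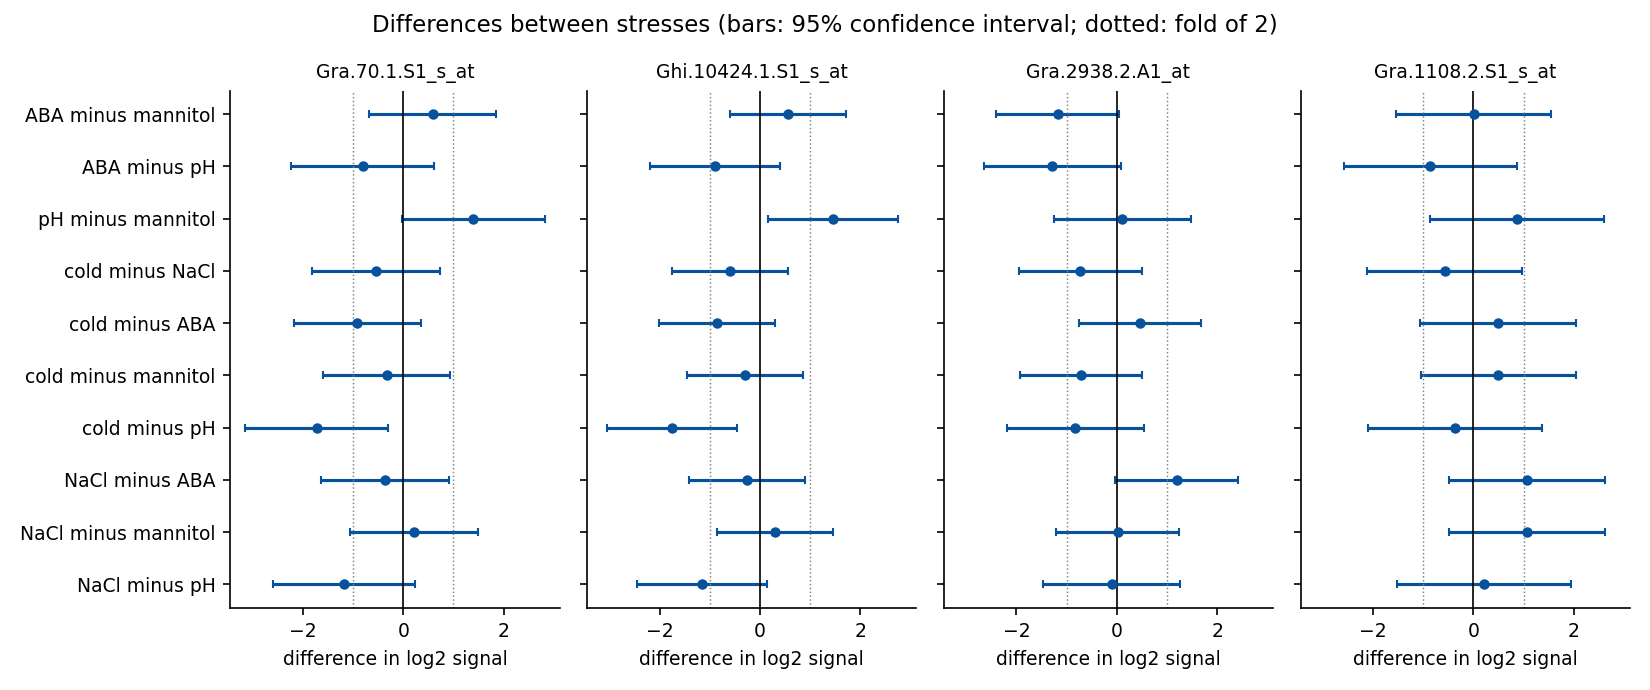
Differences between pairs of stresses in log2 signal (horizontal axis) with 95% confidence intervals for each of the 4 thiamine synthesis probe sets, 1 row for each of the 10 pairs; dotted lines mark a fold of 2. Of 40 intervals 3 leave out 0, cold minus pH for the first 2 probe sets and pH minus mannitol for Ghi.10424.1.S1_s_at.

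The 4 probe sets fell into a tight pair and 2 looser ones. Over the 17 arrays the log2 signals of the thiazole enzyme probe set and Ghi.10424.1.S1_s_at had a Pearson r of 0.998 (Spearman rho 0.988), and over the 14 stress arrays r was 0.993. With the mean of each condition taken out, r was still 0.988, so the pair also moved together among arrays of 1 condition. Their differences from control never parted by more than 0.09 in any of the 5 stresses. These values are descriptions: the arrays are shared, and Gra.70.1.S1_s_at and Ghi.10424.1.S1_s_at may detect overlapping transcripts, since both are _s_at probe sets.

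The likeness of the other 2 rested more on the split between stress and control. The thiazole enzyme probe set had r = 0.89 with Gra.2938.2.A1_at and r = 0.85 with Gra.1108.2.S1_s_at over 17 arrays, but 0.50 and 0.60 over the 14 stress arrays. Gra.2938.2.A1_at and Gra.1108.2.S1_s_at had r = 0.90 with each other over 17 arrays and 0.74 over the stress arrays. With condition means taken out the 6 correlations among the 4 probe sets ran between 0.72 and 0.99. In NaCl, all 4 were highest in replicate 1 and lowest in replicate 2.

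**Figure D4:**
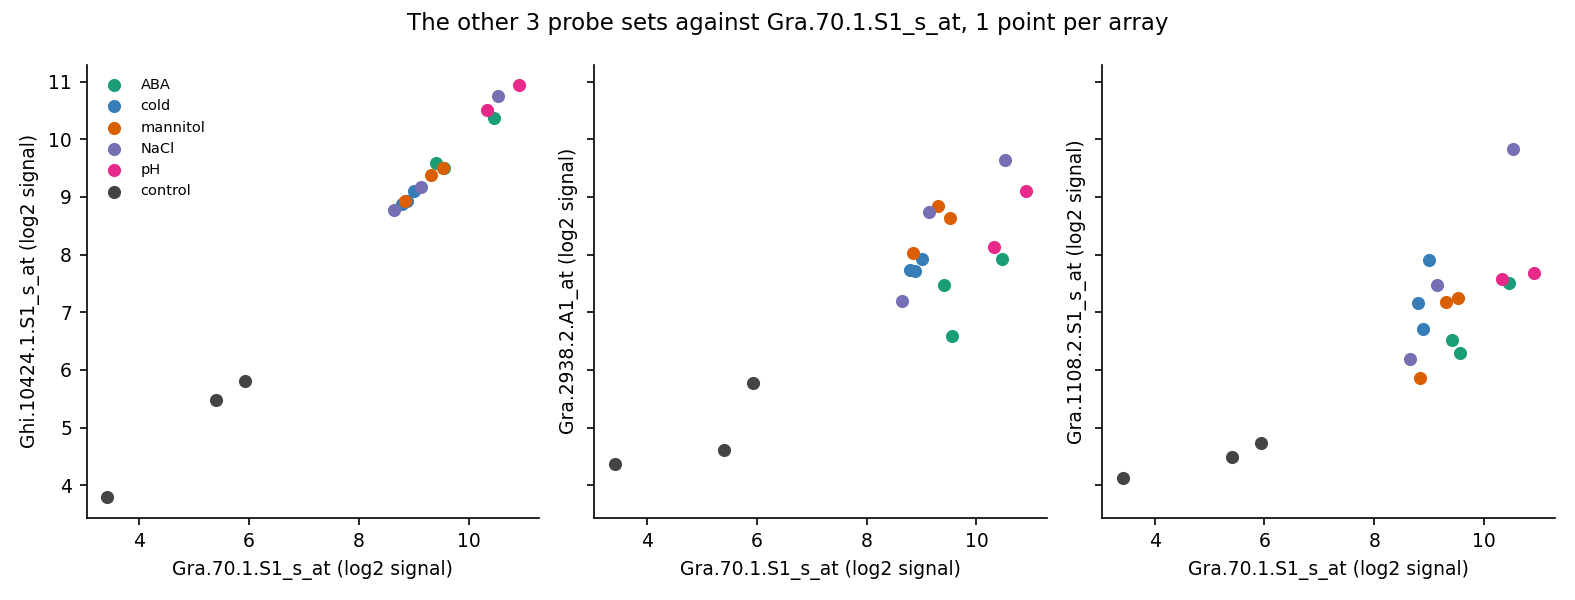
Log2 signal of Ghi.10424.1.S1_s_at, Gra.2938.2.A1_at and Gra.1108.2.S1_s_at (vertical axes) against that of the thiazole enzyme probe set Gra.70.1.S1_s_at (horizontal axes), with 1 point per array coloured by condition. The first panel is a straight line through all 17 arrays (r = 0.998), whereas in the others the stress arrays form a loose cloud apart from the 3 control arrays.

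A further probe set, Gra.1108.1.A1_s_at, shares its cluster number with one of the 4. No other probe set on the array has an identifier with a cluster number of the 4. Probe sets placed in the same UniGene clusters under other numbers were not searched for. Neither the platform annotation nor the study's tables used here describe Gra.1108.1.A1_s_at, so it was not counted as a thiamine synthesis transcript. It was included for its number, not its values, and its means were lower, not higher, under stress. Its log2 signal was 4.69, 4.77 and 4.95 in ABA, 6.02, 6.86 and 6.85 in cold, and 4.74, 4.68 and 4.82 in mannitol. It was 5.81, 6.95 and 6.76 in NaCl and 4.95 and 5.04 in pH, against 7.48, 6.40 and 7.27 in control. ABA, mannitol and pH lay below all control arrays, and cold and NaCl overlapped with control.

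By limma it fell on ABA (difference -2.25, adjusted p = 0.00068), on mannitol (-2.30, adjusted p = 0.00045) and at pH 11 (-2.05, adjusted p = 0.0023), comparisons in which 22.1%, 22.8% and 22.1% of all probe sets passed. The differences of -0.48 in cold (adjusted p = 0.39) and -0.54 in NaCl (adjusted p = 0.48) did not pass, where 11.1% and 0.695% of all probe sets did. It was higher in cold than in ABA by 1.77 (limma adjusted p = 0.0028), than in mannitol by 1.83 (adjusted p = 0.0025) and than in pH by 1.58 (adjusted p = 0.012). It was likewise higher in NaCl than in ABA by 1.71 (limma adjusted p = 0.0035), than in mannitol by 1.76 (adjusted p = 0.0030) and than in pH by 1.51 (adjusted p = 0.015). The calls against pH ended without a pH array: cold minus pH was 1.53 without replicate 1 and 1.62 without replicate 2, and NaCl minus pH was 1.46 and 1.55. Fits to the 2 compared groups alone ended the calls of cold minus pH, NaCl minus ABA and NaCl minus pH, and SAM did not call the last. The conditions in which it fell are those of the other deposited scale, so scale and condition cannot be told apart here either. Within the cold, NaCl and control arrays alone its differences were -0.48 in cold and -0.55 in NaCl.

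**Figure D5:**
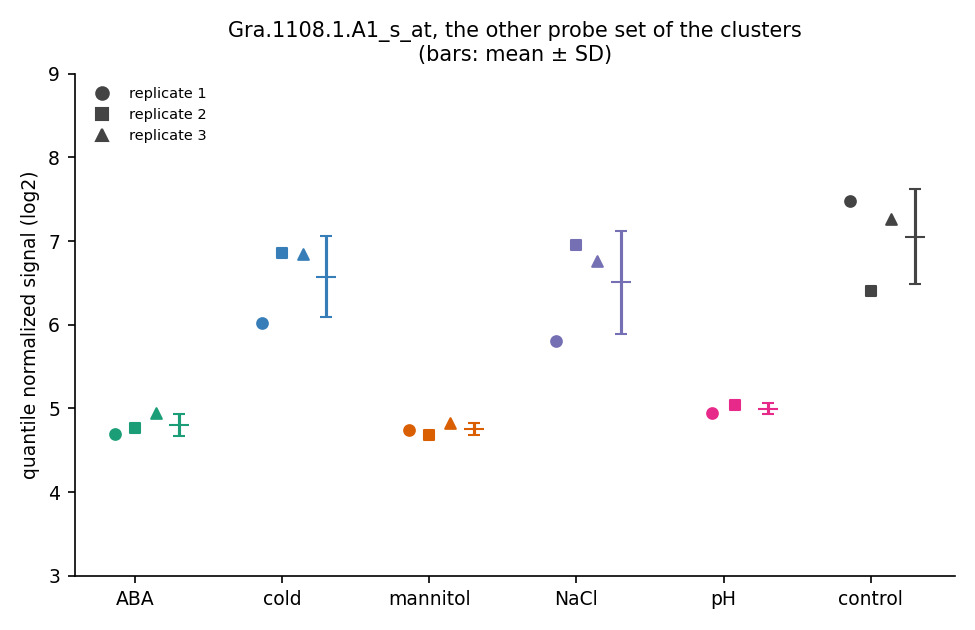
Quantile normalized log2 signal (vertical axis) of Gra.1108.1.A1_s_at in each of the 17 arrays by condition (horizontal axis), with the mean and SD beside the points and marker shapes for the replicate number. The ABA, mannitol and pH arrays lie between 4.68 and 5.04, and the cold, NaCl and control arrays between 5.81 and 7.48.

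Other probe sets followed the same pattern across the arrays. Likeness was measured as Pearson r with the mean of the 4 standardized profiles over the 17 arrays, and 52 further probe sets had an r of at least 0.8 and 3 of at least 0.9. The closest was GraAffx.34185.1.A1_s_at (r = 0.93), which has no name in the sources used here, followed by GhiAffx.24644.1.S1_at (r = 0.91), also unnamed. The signals of GraAffx.34185.1.A1_s_at were low, 0.70 to 1.95 in control and 2.70 to 4.93 under stress, beside a 25th percentile of 4.07. Unnamed too, with r of 0.87 to 0.89, were Ghi.4832.1.A1_s_at, GhiAffx.26047.1.S1_at, GhiAffx.16292.1.S1_at, Gra.746.1.A1_s_at and GhiAffx.61605.1.S1_s_at. In all of these the 14 stress arrays lay above the 3 control arrays, as they did in 1.95% of all probe sets. These probe sets were picked for likeness to profiles with that step, so nothing is read from it.

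The third closest of all, and the closest among the 858 other probe sets with a name, was Gra.222.1.A1_s_at (r = 0.91), weakly similar to an Arabidopsis universal stress protein, a family of small proteins induced by many stresses. It was above control by 1.79 on ABA, 2.49 in cold, 2.09 on mannitol, 2.81 on NaCl and 3.24 at pH 11 on the log2 scale, so that pH was the highest stress as for the thiazole enzyme. The rest of the order differed: its lowest stress was ABA, and that of the thiazole enzyme was cold. Over the 14 stress arrays its r was 0.60. Ghi.255.1.S1_at (r = 0.88), likened to a plastid lipid-associated fibrillin, a protein of plastoglobules, was above control by 1.74 to 2.44. Ghi.8046.1.S1_at (r = 0.86), cotton alcohol dehydrogenase 1, an enzyme of ethanol fermentation, was above control by 1.73 to 2.71, with mannitol the highest.

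The remaining named followers had smaller correlations. Ghi.9910.1.S1_s_at (serine carboxypeptidase SCPL20) had r = 0.85 and Ghi.5108.2.A1_s_at (a DNA binding protein) r = 0.84. Ghi.4039.1.A1_s_at, likened to phenylalanine ammonia-lyase PAL2, which opens the phenylpropanoid pathway, had r = 0.80 and was above control by 0.93 in mannitol to 3.02 in pH. Gra.2773.1.S1_s_at (phosphoglucomutase, which interconverts glucose phosphates) had r = 0.79, and 12 of its 14 stress arrays were above all control arrays. Ghi.5214.1.S1_at and Ghi.8845.1.A1_s_at (RNA binding proteins) and Ghi.7728.1.S1_at (a heat shock protein binding protein) had r of 0.78 to 0.79. Most names came from the study's tables of changed transcripts, so the named followers were drawn from probe sets already listed as stress-responsive. The likeness also followed the step between control and stress: none of the 10 probe sets closest over 17 arrays was among the 10 closest over the 14 stress arrays.

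The lists of related genes were short because few probe sets carry a name. The thiamine synthesis list held only the 4 probe sets above, and no probe set was named as an enzyme that uses thiamine diphosphate. The antioxidant list held 5 probe sets, of which by limma 3 rose on ABA, 2 on mannitol and 3 at pH 11, and 0 fell, where 11.8%, 11.9% and 11.7% of all probe sets rose. Most names stem from tables of transcripts chosen on these arrays, so the counts do not stand as independent evidence of direction. In cold and in NaCl 0 of the 5 passed, with 0 at an unadjusted p under 0.05 and 0 by SAM, and 5.66% and 0.466% of all probe sets rose. The medians of the 5 were 1.78 on ABA, 0.43 in cold, 1.02 on mannitol, 0.33 on NaCl and 1.70 at pH 11, beside medians of all probe sets of -0.03, -0.00036, -0.05, -0.03 and -0.03.

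The antioxidant probe sets that rose were those described as glutathione enzymes. Their names came only from the study's tables of transcripts changed on these arrays, whereas the peroxidase probe sets carry platform names. Their adjusted p-values are therefore descriptions, and nothing is read from the split between them and the peroxidases. The 2 probe sets likened to lactoylglutathione lyase, which detoxifies methylglyoxal with glutathione, were Ghi.7912.3.S1_at, with rises of 2.49 on ABA, 2.29 on mannitol and 2.23 at pH 11 (limma adjusted p = 0.00016, 0.00019 and 0.00062), and Ghi.7912.1.S1_s_at, with rises of 1.86, 1.60 and 1.70 (adjusted p = 0.00017, 0.00032 and 0.00057). The glutathione S-transferase probe set Ghi.3211.1.A1_at rose by 1.78 in ABA and by 1.79 in pH (limma adjusted p = 0.0089 and 0.016). The peroxidase probe sets did not pass: Ghi.1039.1.S1_s_at differed from control by 0.42 in mannitol (limma adjusted p = 0.14), a sign that turned under median centring and under trimmed mean scaling, and Ghi.8136.1.S1_s_at by 1.72 in NaCl (adjusted p = 0.58). The signals of Ghi.8136.1.S1_s_at were very low, with means of 0.86 in NaCl (SD 2.76) and -0.87 in control (SD 2.06).

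The photosystem II 44 kDa protein (Gra.1806.1.S1_at), a chlorophyll-binding core antenna protein, was 1.59 above control in pH (limma adjusted p = 0.038). In ABA it was 1.04 above control (limma adjusted p = 0.11). Its name, too, came only from the study's tables of transcripts changed on these arrays, so these p-values are descriptions. The pH call was lost without pH replicate 1 (0.67), control replicate 1 (1.54), control replicate 3 (1.43) or mannitol replicate 3 (1.60) and in a fit to pH and control alone. The nitrate transporter probe sets are given as a description, since the study lists both as repressed on these arrays. Gra.2247.1.S1_at differed from control by -3.32 on ABA, -2.21 in cold, -3.98 on mannitol, -1.92 on NaCl and -4.19 at pH 11, and Gra.2247.2.A1_at by -3.53, -2.07, -3.89, -1.70 and -4.05.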

How the data were processed

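RNA of whole cotton seedlings was hybridised to the Affymetrix cotton genome array. Per the labels, the authors summarised the probes with MAS5 and deposited linear signal intensity values for 24132 probe sets in 17 arrays; the version and scaling settings are not given in the sources used here. The labels name a biotin label and also dye pairs; each array holds 1 value per probe set and was treated as 1-colour. The 103 control probe sets were left out of the normalization and tests. All columns of the table were used.

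Deposited intensity values were log2 transformed, quantile normalized over 17 arrays and fitted with 1 coefficient per condition (limma 3.58.1, R 4.3.3). Calls took a fold of 2 or more with an adjusted p (Benjamini-Hochberg over the 24029 probe sets of a contrast) not above 0.05. Scripts were tested on simulated data. The number of arrays limits the precision.

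The 4 probe sets, the gene lists (patterns over probe set names) and the tests were chosen with earlier results of these data known. Named besides the 4 were the other probe set with a cluster number of theirs in its identifier, the 10 probe sets and the 10 named probe sets most like them, and the list probe sets with the smallest adjusted p. Names came from the platform annotation (743 probe sets) and from the study's tables (974 more, unnamed loci included). The nitrate transporter probe sets, and the peroxidase Ghi.8136.1.S1_s_at, are named as single list members whose values had been seen.

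Alternatives were no rescaling, median centring, 2% trimmed mean scaling, 32 added to each signal and dropping the 25% of probe sets with the lowest signals. Fits were also made to the compared groups, and to the ABA, mannitol and pH arrays or the control, cold and NaCl arrays alone. Further alternatives were a variance trend, a replicate block, each array left out and SAM. Leaving out NaCl replicates 1 and 2 together was chosen after seeing the data. For the likeness, Spearman rho and median centring were tried.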

Additional observations from a re-analysis of the deposited data

Results flagged for a closer look

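For Gra.1108.1.A1_s_at the effect of cold and of NaCl differed from that of ABA, mannitol and pH by a test of the difference itself, while limma called none of the 40 differences between stresses of the 4 thiamine synthesis probe sets and SAM called 3, cold minus pH for Gra.70.1.S1_s_at and Ghi.10424.1.S1_s_at and ABA minus mannitol for Gra.2938.2.A1_at. The differences in log2 signal were 1.77 for cold minus ABA, 1.83 for cold minus mannitol, 1.58 for cold minus pH, 1.71 for NaCl minus ABA, 1.76 for NaCl minus mannitol and 1.51 for NaCl minus pH (limma adjusted p = 0.0028, 0.0025, 0.012, 0.0035, 0.0030 and 0.015). All 6 run between the scale shared by ABA, mannitol and pH and the arrays with lower deposited scales, so scale and condition cannot be told apart. In these pairs limma called between 4439 (cold minus pH) and 5184 (NaCl minus ABA) of all 24029 probe sets. The 6 differences are those of a probe set that neither the platform annotation nor the tables used here name.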

How the results depend on the processing

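No alternative turned the direction of any of the 20 differences of the 4 probe sets from control. Without rescaling, the median of all probe sets moved by 2.09 (ABA), 2.19 (mannitol) and 2.11 (pH), and the mean difference of the 4 was 5.74, 5.78 and 6.66, or 3.65, 3.58 and 4.54 relative to that shift, against 3.60, 3.61 and 4.57 in the main analysis. The same setting called 24 of the 40 differences between stresses, all of them in pairs that cross the deposited scales. No share of all probe sets called is given for this setting, so the 24 are not read as a result about the 4. The setting also turned NaCl minus ABA to -1.82 for Gra.2938.2.A1_at and -1.93 for Gra.1108.2.S1_s_at, and NaCl minus mannitol to -2.03 for the last. In these pairs the median of all probe sets moved by -2.85 and -2.96. Without rescaling, Gra.1108.1.A1_s_at was at 0.044 in mannitol and 0.13 in pH, none of its 5 contrasts with control was called (0, against 3), and it turned to -0.67 for cold minus ABA, -0.85 for cold minus mannitol, -0.94 for cold minus pH, -1.22 for NaCl minus ABA, -1.41 for NaCl minus mannitol and -1.49 for NaCl minus pH. Relative to the shift these 8 values were -2.15, -1.99, 1.73, 1.66, 1.49, 1.62, 1.56 and 1.40. Calls in the lists without rescaling were 14 for antioxidant (8 in the main analysis), 3 for photosynthesis (1) and 0 for the nitrate transporter (7 of 10), and SAM gave 2 for photosynthesis. Peroxidase Ghi.1039.1.S1_s_at in mannitol turned to -0.40 with median centring and -0.13 with trimmed mean scaling.

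Of the 40 differences between stresses, limma called 2 when fitted to the compared groups, 2 with the offset and 1 with the variance trend. It called 1 without the lowest signals and 1 without NaCl replicates 1 and 2, and leaving out single arrays gave 0 to 4. SAM called 3. Apart from SAM, no share of all probe sets called is given for these settings, so the counts are not set against a background. When single arrays were left out, the photosynthesis list gave 0 to 1 and the nitrate transporter 6 to 8. The transporter also gave 6 in the fit to the compared groups (in the main analysis Gra.2247.2.A1_at passed in cold at a limma adjusted p of 0.049). These list counts are descriptions, since the study lists both transporter probe sets as repressed on these arrays. Most other list names also stem from its tables of changed transcripts. Of the 10 closest probe sets, 1 was shared with Spearman rho and 4 with median centring. The cause of each change was not tested.

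With a replicate block 0 of 40 differences between stresses were called and the pH mean of the 4 was 4.62. Same-numbered arrays of different conditions had correlations of deviations between -0.18 and 0.20 (mean 0.01, 40 pairs), so the numbers did not pair the arrays; the block changed 1 call, of a nitrate transporter probe set (6 calls, against 7).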
